A study of Mus musculus with 9 samples.

Results

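Glycolysis and the response to hypoxia were described in D2.0R cells (D2.OR in some labels), a mouse mammary adenocarcinoma line, through 40 genes chosen by name. They comprise 3 transporters of glucose and lactate, 17 glycolytic enzymes down to lactate dehydrogenase, 3 regulators of flux, 15 hypoxia targets outside glycolysis and the 2 hypoxia-inducible factor (HIF) alpha subunits. All 40 were found among the 55487 gene rows of the table, all passed the filter on low counts and all could be tested. Per the labels, every sample consisted of cells loaded with CellTrace Far Red, a dye diluted at each division, and held for 1 week in medium with 2% serum, after which dye-positive cells, called quiescent, and dye-negative cells, called proliferating, were sorted. Maintenance medium held 10% serum. The study addressed dormancy of breast cancer cells and its regulation by natural killer cells.

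The 9 libraries share 1 description that names CTFR-negative, CTFR-positive and bulk cells, 3 kinds in all, and their titles differ only by a number from 1 to 9. No label ties a library to a kind. Libraries are therefore called by title number, none is read as quiescent or proliferating, and no comparison of sorted fractions was made. Sets of title numbers used below (1 to 3, 4 to 6 and 7 to 9, or 2, 5 and 8) are positions in the numbering and no conditions. The labels do not say whether separate cultures were used.

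Glycolysis splits glucose into pyruvate, which lactate dehydrogenase turns into lactate for export. Under low oxygen the HIF alpha proteins escape hydroxylation by the prolyl hydroxylases, pair with ARNT and bind a short DNA word, ACGTG or GCGTG, near genes of glucose uptake, glycolysis, angiogenesis and mitophagy. In tumours the enzymes are often abundant in the presence of oxygen as well, and several of them are also targets of MYC. HIF alpha is controlled mainly as protein, so the level of its mRNA is not a measure of its activity.

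Levels are counts per 1000000 (CPM) after TMM scaling of libraries. A gene is called variable when a chi-square test of its 9 counts against counting noise gave an adjusted p under 0.05 (Benjamini-Hochberg over all genes tested) and the highest library was at least 2-fold above the lowest. Intervals of a fold are exact 95% binomial intervals and cover counting error only. The highest and lowest libraries of a gene were picked for being extreme, so their fold carries no p. Library totals lay between 18732737 estimated counts (library 9) and 41243036 (library 7), so that 3 counts were worth 0.164 CPM in the shallowest library and 0.0742 CPM in the deepest. The mesenchymal genes Vim and Fn1 were abundant (highest values 5848 and 14672 CPM), Krt8, a keratin gene of the mammary epithelium, stood between 146 and 662 CPM, and Epcam, an epithelial adhesion gene, stayed at or under 0.219 CPM. The summed level of 6 leukocyte markers was at most 0.170 CPM, of 4 endothelial markers 0.602 CPM and of 3 erythroid markers 0.137 CPM, and Ncr1 (natural killer cells), Cdh5 (endothelium), Hba-a1 and Hbb-bs (red cells) had 0 counts in every library.

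Over the 40 genes, 11 of 17 glycolytic enzymes were highest in library 7 and 8 were lowest in library 3, whereas Hif1a, Vegfa, Ndrg1 and Hk2 were low in libraries 2, 5 and 8, and Epas1 was high there. For 7 of the 40 genes libraries 2, 5 and 8 lay wholly below the other 6, and for 4 wholly above. The shares of all tested genes were 20.1% and 19.0%, so this division was no more frequent among the 40. The genes Slc16a1, Adm and Mxi1 peaked in library 1, and Ldhb, Car12 and Epas1 in library 2. Of the 40 genes, 18 were variable, against 28.0% of the 12813 genes tested in the whole table, and the largest single range was that of Adm. All 40 varied beyond counting noise, as 94.1% of all tested genes did, with the largest adjusted p, 6.80e-05, for Egln3 (chi-square test, Benjamini-Hochberg). The median range of the 40 was 0.91 on the log2 scale, beside 0.69 for all tested genes. Highest in library 7 were 21 of the 40, against 14.3% of all tested genes, and lowest in library 3 were 15, against 6.59%. Lowest in library 2 were 9 of the 40, against 18.2% of all tested genes, a share near that of the whole table. Library 7 was also the deepest library, and the part of depth in these counts was not tested.

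**Figure D1:**
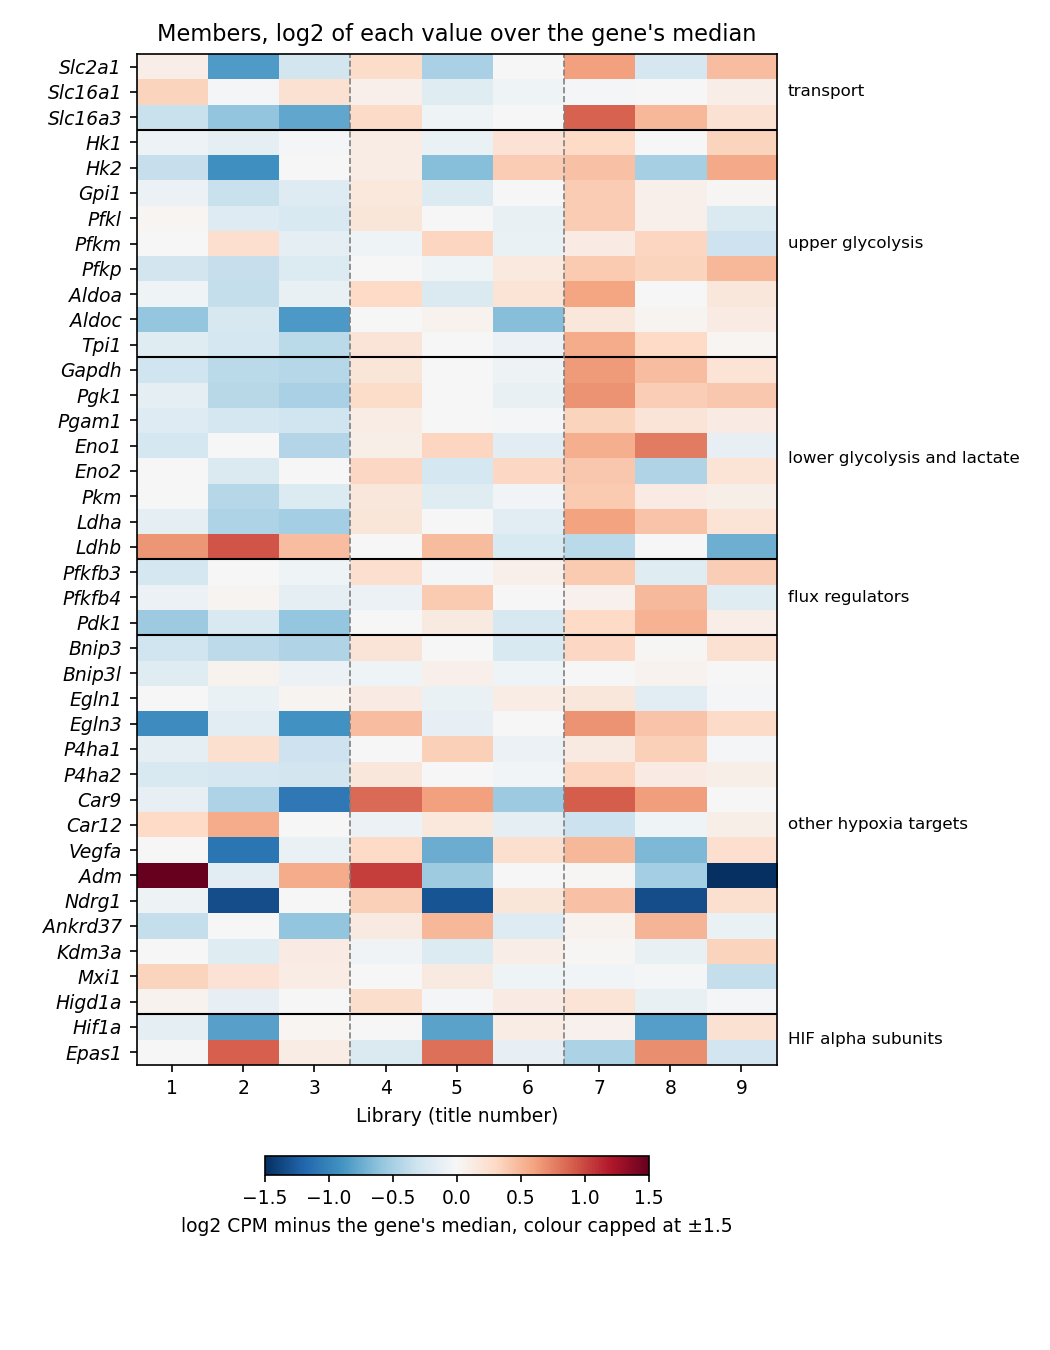
Heat map of the 40 genes (rows, by role) in the 9 libraries (columns, by title number). Colour gives the log2 CPM of a gene relative to its median library, capped at 1.5 either way, and dashed lines separate libraries 1 to 3, 4 to 6 and 7 to 9. Most enzyme rows peak in library 7 (11 of 17), and the rows of Ndrg1, Vegfa and Hif1a are blue in libraries 2, 5 and 8, where Epas1 is red.

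Sequence just before the start of transcription was read for genes of both patterns, since the DNA word bound by HIF lies there in many of its known targets. In 30-base windows from RefSeq promoters (GRCm38.p6), written 5′ to 3′ on the gene's strand, capitals mark ACGTG or GCGTG or their reverse complements CACGT and CACGC. Shown are 3 enzymes of lower glycolysis, a mitophagy gene, a collagen hydroxylase, hexokinase 2 and the HIF-1 alpha gene itself. Each window was chosen as the 30 bases holding the most such words among the 250 before the start. The genes shown were picked among those with a word, so its presence was fixed by the choice. Tpi1 and Eno2, which follow the same 2 patterns, had 0 words. The windows lie at chrX:106186947-106186976 (Pgk1, plus strand), chr7:46845751-46845780 (Ldha, plus), chr6:125165805-125165834 (Gapdh, minus), chr7:138909597-138909626 (Bnip3, minus), chr11:54100838-54100867 (P4ha2, plus), chr6:82774502-82774531 (Hk2, minus) and chr12:73907720-73907749 (Hif1a, plus), and none overlaps an exon of GENCODE M21.
Pgk1: aggACGTGacaaatggaagtagCACGTctc
Ldha: gcctaCACGTGggttcccgCACGTccgctg
Gapdh: gagcccaCACGCttggtGCGTGcacatttc
Bnip3: gcgCACGCgccgCACGTGccaCACGCtccc
P4ha2: catcgcatACGTGcagcGCGTGgcggctcg
Hk2: tcttcccgcagccaatgagcacatcCACGT
Hif1a: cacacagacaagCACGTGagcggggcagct

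RefSeq promoters were at hand for 37 of the 40 genes, and 33 of the 37 held ACGTG or GCGTG on either strand within 250 bases before at least 1 annotated start. The same held for 5952 of the 9507 tested genes with an entry (62.6%). A gene with more annotated starts has more chances of a match, and the 37 genes had 55 windows, against 12185 for the 9507 tested genes. Per window the share was 76.4% for the 37 genes and 56.4% for tested genes. ACGTG alone was found in 21 of the 37 genes, against 25.5% of those tested genes, or in 45.5% of windows against 21.7%. By role, 14 of 17 enzymes and 12 of 13 other hypoxia targets with an entry held either word, and 7 of the 17 and 9 of the 13 held ACGTG. The palindrome CACGTG, which is read as ACGTG on both strands and is also the E-box bound by MYC, stood in 6 of the 37, against 10.1% of tested genes, or in 10.9% of windows against 8.39%. These genes are listed as hypoxia targets in part because such words are known in them. A match is a description of the sequence, not a binding site.

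Transport came first by role. Slc2a1 (ENSMUSG00000028645, chromosome 4 at 119108711 to 119137983 of GRCm38), which encodes the glucose transporter GLUT1, stood at 85.7, 44.2 and 65.9 CPM in libraries 1 to 3, at 96.3, 56.9 and 79.7 CPM in libraries 4 to 6 and at 122, 66.9 and 110 CPM in libraries 7 to 9. Within each run of 3 title numbers the middle library was the lowest, and values were higher at each step 1-4-7, 2-5-8 and 3-6-9. Libraries 7 and 2 differed 2.75-fold (interval 2.60 to 2.91). Slc16a3 (ENSMUSG00000025161, chromosome 11), the gene of the lactate exporter MCT4, stood at 37.2, 31.1 and 27.1 CPM in libraries 1 to 3, at 57.1, 44.8 and 46.7 CPM in libraries 4 to 6 and at 86.1, 66.1 and 54.6 CPM in libraries 7 to 9. Libraries 1 to 3 thus lay wholly below the other 6, and the extremes, libraries 7 and 3, differed 3.17-fold (interval 2.95 to 3.41). Slc16a1, the gene of the related transporter MCT1, was not variable. It was highest in library 1 (142 CPM) and lowest in library 5 (99.7 CPM), with a median of 113 CPM. Per kilobase of exon, Slc16a3 made up 39.3% of the 2 transporters in library 7, 32.7% in library 8, 27.2% in library 9 and between 14.6% and 19.0% in libraries 1 to 3.

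In upper glycolysis, from hexokinase to triose phosphate isomerase, 2 of 9 genes were variable (28.0% of all tested genes). In library 7, 5 of the 9 peaked (14.3% of all tested genes), and 5 had their minimum in library 2 (18.2%). Hk2 (ENSMUSG00000000628, chromosome 6 at 82725025 to 82774454), the inducible hexokinase gene, stood at 135, 90.3 and 172 CPM in libraries 1 to 3, at 185, 110 and 223 CPM in libraries 4 to 6 and at 234, 121 and 255 CPM in libraries 7 to 9. Libraries 2, 5 and 8 lay wholly below the other 6, and library 9 stood 2.82-fold above library 2 (interval 2.69 to 2.95). Hk1, the constitutive hexokinase gene, shared its highest and lowest libraries but ranged only 1.39-fold, between 436 and 313 CPM with a median of 347. Hk2 therefore made up between 45.5% (library 9) and 29.2% (library 2) of the 2 hexokinases per kilobase.

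Aldoc, the gene of the brain-type aldolase, was the other variable gene of this stretch, at 7.14, 9.09 and 5.89 CPM in libraries 1 to 3, at 10.7, 11.1 and 6.87 CPM in libraries 4 to 6 and at 12.0, 11.0 and 11.7 CPM in libraries 7 to 9. Its range of 1.02 on the log2 scale fell short of 2-fold without library 3 (0.80), without library 7 (0.99) and with library totals alone (0.997). Aldoa, the main aldolase gene, had 1430 CPM in library 7 and 742 in library 2 with a median of 947, and Aldoc made up at most 1.21% of both per kilobase. Tpi1, the triose phosphate isomerase gene, was just short of the threshold, at 611 CPM in library 7 and 312 in library 3 with a median of 415. Its log2 range of 0.97 became 1.0004 without library 2 and 1.0003 without library 6.

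The other genes of upper glycolysis moved less than 2-fold. Gpi1, the glucose-6-phosphate isomerase gene, had 356 CPM in library 7 and 217 in library 2 (median 273). Among the phosphofructokinase genes, Pfkl, the liver type, had 340 CPM in library 7 and 222 in library 3 (median 261), and Pfkp, the platelet type, 91.4 CPM in library 9 and 51.1 in library 2 (median 64.9). Pfkm, the muscle type, had another order, with 92.9 CPM in library 5 and 59.6 in library 9 (median 74.1). It was the 1 enzyme with libraries 2, 5 and 8 wholly above the other 6. Per kilobase Pfkl led in every library, with a share of 53.1% to 62.9%, and Pfkp made up 5.93% to 11.7%.

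In lower glycolysis 5 of 8 genes were variable (28.0% of all tested genes), 6 peaked in library 7 (14.3%) and 5 had their minimum in library 3 (6.59%). Gapdh (ENSMUSG00000057666, chromosome 6 at 125161715 to 125166467), the glyceraldehyde-3-phosphate dehydrogenase gene and a common reference for normalisation, stood at 596, 553 and 544 CPM in libraries 1 to 3, at 835, 735 and 696 CPM in libraries 4 to 6 and at 1141, 1012 and 845 CPM in libraries 7 to 9. The 3 blocks of title numbers did not overlap, and libraries 7 and 3 differed 2.10-fold (interval 2.06 to 2.13). Pgk1 (ENSMUSG00000062070, chromosome X at 106187100 to 106203699), the phosphoglycerate kinase gene, stood at 360, 296 and 282 CPM in libraries 1 to 3, at 480, 396 and 366 CPM in libraries 4 to 6 and at 630, 511 and 527 CPM in libraries 7 to 9, a 2.23-fold range (interval 2.18 to 2.28). Its blocks did not overlap either. Without library 7 the log2 ranges of Gapdh (1.07) and Pgk1 (1.16) were 0.91 each, under the threshold.

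The genes of the 2 lactate dehydrogenase subunits ran in opposite directions along the blocks of title numbers. Ldha (ENSMUSG00000063229, chromosome 7 at 46841475 to 46855627), whose product favours lactate formation, stood at 432, 348 and 336 CPM in libraries 1 to 3, at 546, 479 and 429 CPM in libraries 4 to 6 and at 728, 647 and 551 CPM in libraries 7 to 9. Libraries 7 to 9 lay wholly above the other 6, and library 7 was 2.17-fold above library 3 (interval 2.12 to 2.21), with a log2 range of 1.12 that was 0.97 without library 7. Ldhb (ENSMUSG00000030246, chromosome 6 at 142490249 to 142507957), the heart-type subunit gene, stood at 23.0, 27.8 and 19.9 CPM in libraries 1 to 3, at 14.4, 20.1 and 12.3 CPM in libraries 4 to 6 and at 10.9, 14.5 and 8.70 CPM in libraries 7 to 9. It was lower at each step 1-4-7, 2-5-8 and 3-6-9, the 1 enzyme with that order, and libraries 2 and 9 differed 3.19-fold (interval 2.70 to 3.80). Per kilobase Ldhb made up 14.4% of both subunits in library 2 and 3.07% in library 7.

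Eno1, the main enolase gene, stood at 295, 354 and 260 CPM in libraries 1 to 3, at 375, 443 and 318 CPM in libraries 4 to 6 and at 516, 607 and 326 CPM in libraries 7 to 9. Library 8 was 2.34-fold above library 3 (interval 2.28 to 2.39), and the log2 range of 1.22 was 0.99 without library 8. Eno2, the neuronal enolase gene, was lowest where Eno1 was highest, with 110 CPM in library 7 and 60.5 in library 8 (median 83.1). Its share of both enolases per kilobase lay between 27.0% in library 6 and 10.2% in library 8. Pgam1, a phosphoglycerate mutase gene, had 644 CPM in library 7 and 417 in library 3 (median 512), and Pkm, the pyruvate kinase gene, 3706 CPM in library 7 and 2107 in library 2 (median 2833). Pkm was the most abundant of the 40 genes per kilobase, with a median of 566 CPM per kilobase, ahead of Aldoa (325) and Pgam1 (258). Gapdh, Pgam1, Eno1, Ldha and Tpi1 have processed pseudogenes in the mouse, among which RSEM divides ambiguous reads, which makes their levels uncertain.

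**Figure D2:**
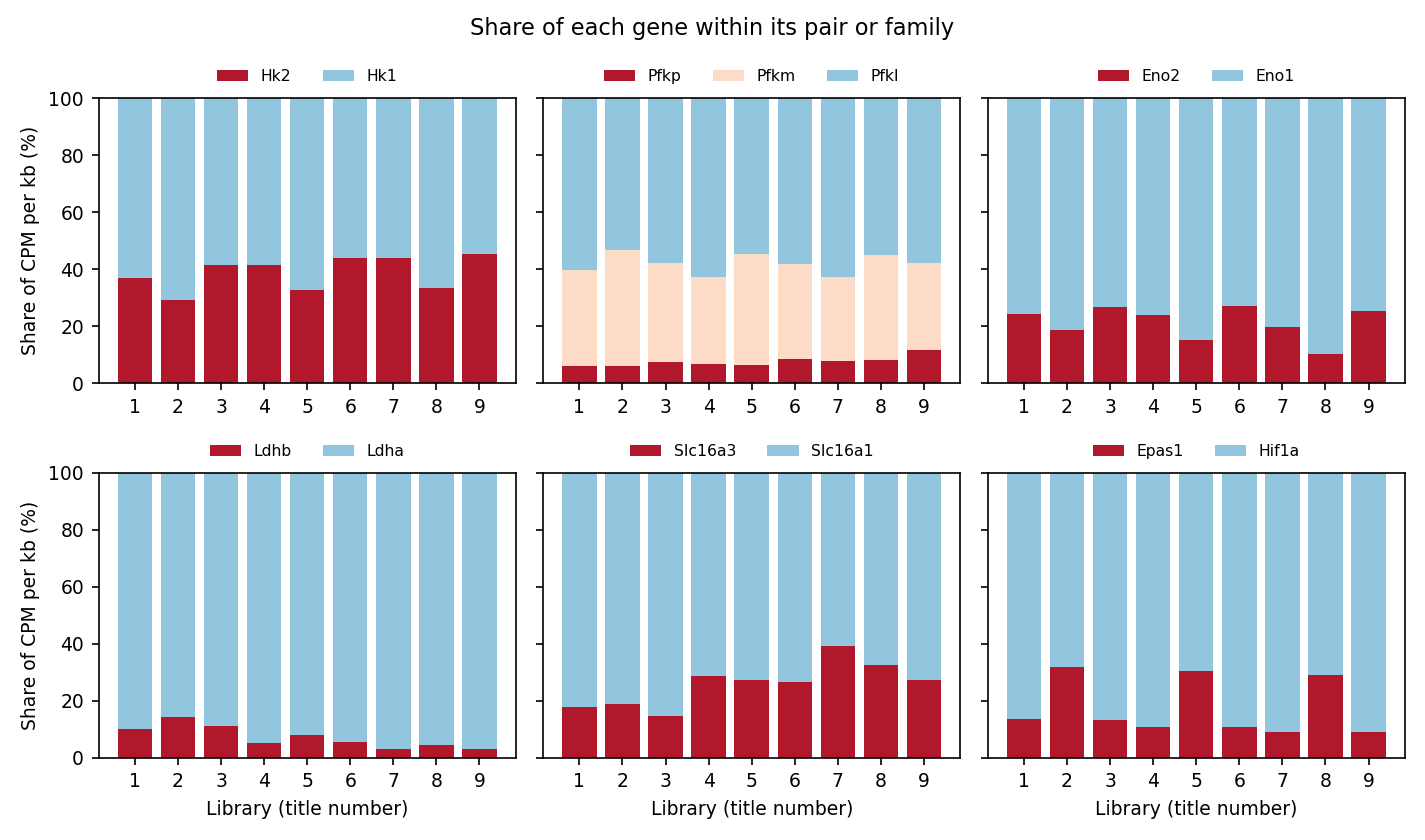
Share of each isozyme or paralogue in the summed CPM per kilobase of its pair or family, in percent, by library (title number). The share of Epas1 is largest in libraries 2, 5 and 8, that of Slc16a3 in library 7 (39.3%), and that of Ldhb in libraries 1 to 3.

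Of the 3 regulators of flux 1 was variable, beside 28.0% of all tested genes. Pdk1, a kinase that keeps pyruvate from the mitochondrial dehydrogenase, stood at 25.6, 31.9 and 25.0 CPM in libraries 1 to 3, at 37.4, 41.1 and 31.6 CPM in libraries 4 to 6 and at 46.2, 53.7 and 39.9 CPM in libraries 7 to 9. Library 8 was 2.15-fold above library 3 (interval 1.99 to 2.33), and the log2 range of 1.10 was 0.89 without library 8. The bifunctional enzymes that set fructose-2,6-bisphosphate stayed within 2-fold. Pfkfb4 stood at 6.51, 7.16 and 6.28 CPM in libraries 1 to 3, at 6.50, 9.15 and 6.93 CPM in libraries 4 to 6 and at 7.27, 9.77 and 6.13 CPM in libraries 7 to 9. Pfkfb3 had 21.6 CPM in library 7 and 13.8 in library 1 (median 16.5), so the 2 genes differed in their extreme libraries.

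Among the 15 other hypoxia targets 6 were variable (28.0% of all tested genes), namely Egln3, Car9, Vegfa, Adm, Ndrg1 and Ankrd37. Vegfa (ENSMUSG00000023951, chromosome 17 at 46016993 to 46032369), the gene of the angiogenic growth factor, stood at 223, 104 and 208 CPM in libraries 1 to 3, at 275, 133 and 263 CPM in libraries 4 to 6 and at 315, 139 and 265 CPM in libraries 7 to 9. Libraries 2, 5 and 8 lay wholly below the other 6, and libraries 7 and 2 differed 3.03-fold (interval 2.92 to 3.14). Ndrg1 (ENSMUSG00000005125, chromosome 15), a gene induced by hypoxia and by differentiation, followed the same division more sharply. Its values were 158 CPM in library 2, 162 in library 5 and 158 in library 8, and between 377 and 541 CPM in the other 6.

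Adm and Car9 had the widest ranges of these targets. Adm, the gene of the vasodilator peptide adrenomedullin (chromosome 7 at 110627661 to 110629820), stood at 12.1, 3.50 and 5.77 CPM in libraries 1 to 3, at 8.05, 2.67 and 3.90 CPM in libraries 4 to 6 and at 3.96, 2.71 and 1.04 CPM in libraries 7 to 9. The value in library 9 rested on 19 counts, and library 1 was 11.7-fold above it (interval 7.36 to 19.6). Its log2 range of 3.47 was 2.16 without library 9 and 2.88 without library 1. Car9 (chromosome 4 at 43506966 to 43513729), the gene of the membrane carbonic anhydrase IX that is widely used as a hypoxia marker, stood at 1.71, 1.34 and 0.849 CPM in libraries 1 to 3, at 3.40, 2.88 and 1.26 CPM in libraries 4 to 6 and at 3.54, 2.90 and 1.86 CPM in libraries 7 to 9. Libraries 7 and 3 differed 4.17-fold (interval 2.80 to 6.40). Car12, the gene of a related carbonic anhydrase that oestrogen also induces, was far more abundant and had its lowest value where Car9 had its highest. It had 466 CPM in library 2 and 255 in library 7 (median 318), and Car9 made up at most 4.37% of both per kilobase.

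The oxygen-sensing hydroxylases differed in level. Egln3 (ENSMUSG00000035105, chromosome 12), which encodes PHD3, stood at 0.383, 0.710 and 0.396 CPM in libraries 1 to 3, at 1.12, 0.728 and 0.798 CPM in libraries 4 to 6 and at 1.31, 1.09 and 0.985 CPM in libraries 7 to 9. These values rested on 11 to 53 counts, and the 3.42-fold range had an interval of 1.77 to 7.26. Under a filter on a mean of at least 1 CPM this gene was not tested. Egln1, which encodes the main hydroxylase PHD2, had 236 CPM in library 7 and 186 in library 8 (median 209), and libraries 2, 5 and 8 lay below the rest. Per kilobase Egln3 made up at most 0.789% of both.

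None of the genes of mitophagy receptors and collagen hydroxylases was variable. Bnip3, a mitophagy receptor gene, stood at 19.2, 17.8 and 17.1 CPM in libraries 1 to 3, at 26.9, 23.5 and 20.1 CPM in libraries 4 to 6 and at 29.0, 23.7 and 27.5 CPM in libraries 7 to 9. Libraries 1 to 3 lay wholly below the other 6 and the range was 1.70-fold (interval 1.54 to 1.87), short of 2-fold. Its relative Bnip3l was the narrowest of the 40 genes, with 166 CPM in library 5, 139 in library 1 and a median of 158. The collagen prolyl hydroxylase gene P4ha1 had 164 CPM in library 5 and 103 in library 3 (median 128), with libraries 2, 5 and 8 wholly above the rest. P4ha2 had 72.3 CPM in library 7 and 47.6 in library 3 (median 57.6), with libraries 1 to 3 wholly below.

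The remaining targets were Ankrd37, Kdm3a, Mxi1 and Higd1a. Ankrd37, an ankyrin repeat gene, had 4.82 CPM in library 8 and 2.21 in library 3 (median 3.35), a log2 range of 1.10 that was 0.87 without library 3. Kdm3a, a histone demethylase gene, had 97.5 CPM in library 9 and 67.2 in library 5 (median 77.5). Mxi1, whose product antagonises MYC, had 51.1 CPM in library 1 and 31.7 in library 9 (median 40.6). Higd1a, a mitochondrial protein gene, had 31.6 CPM in library 4 and 24.2 in library 2 (median 26.4). Of these 4 genes Mxi1 alone was lower at each step 1-4-7, 2-5-8 and 3-6-9, an order shared among the 40 genes with Ldhb and Epas1 and held by 12.6% of all tested genes.

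The 2 HIF alpha subunit genes stood apart in libraries 2, 5 and 8, in opposite directions. Hif1a (ENSMUSG00000021109, chromosome 12 at 73901375 to 73947530) stood at 574, 358 and 641 CPM in libraries 1 to 3, at 629, 361 and 680 CPM in libraries 4 to 6 and at 659, 355 and 739 CPM in libraries 7 to 9. Libraries 2, 5 and 8 were within 355 to 361 CPM and wholly below the others. Libraries 9 and 8 differed 2.08-fold (interval 2.03 to 2.13), a log2 range of 1.06 that dropped under 1 with library totals alone (0.97), with no filter (0.9995) and without library 9 (0.94). Epas1 (ENSMUSG00000024140, chromosome 17 at 86753700 to 86833410), the gene of HIF-2 alpha, stood at 85.2, 158 and 92.1 CPM in libraries 1 to 3, at 73.3, 151 and 78.4 CPM in libraries 4 to 6 and at 61.3, 138 and 70.0 CPM in libraries 7 to 9. Its libraries 2, 5 and 8 lay wholly above the others, and libraries 2 and 7 differed 2.58-fold (interval 2.46 to 2.70). Per kilobase Epas1 made up 31.8% of both subunits in library 2, 30.6% in library 5 and 29.1% in library 8, and between 8.94% and 13.5% in the other libraries.

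**Figure D3:**
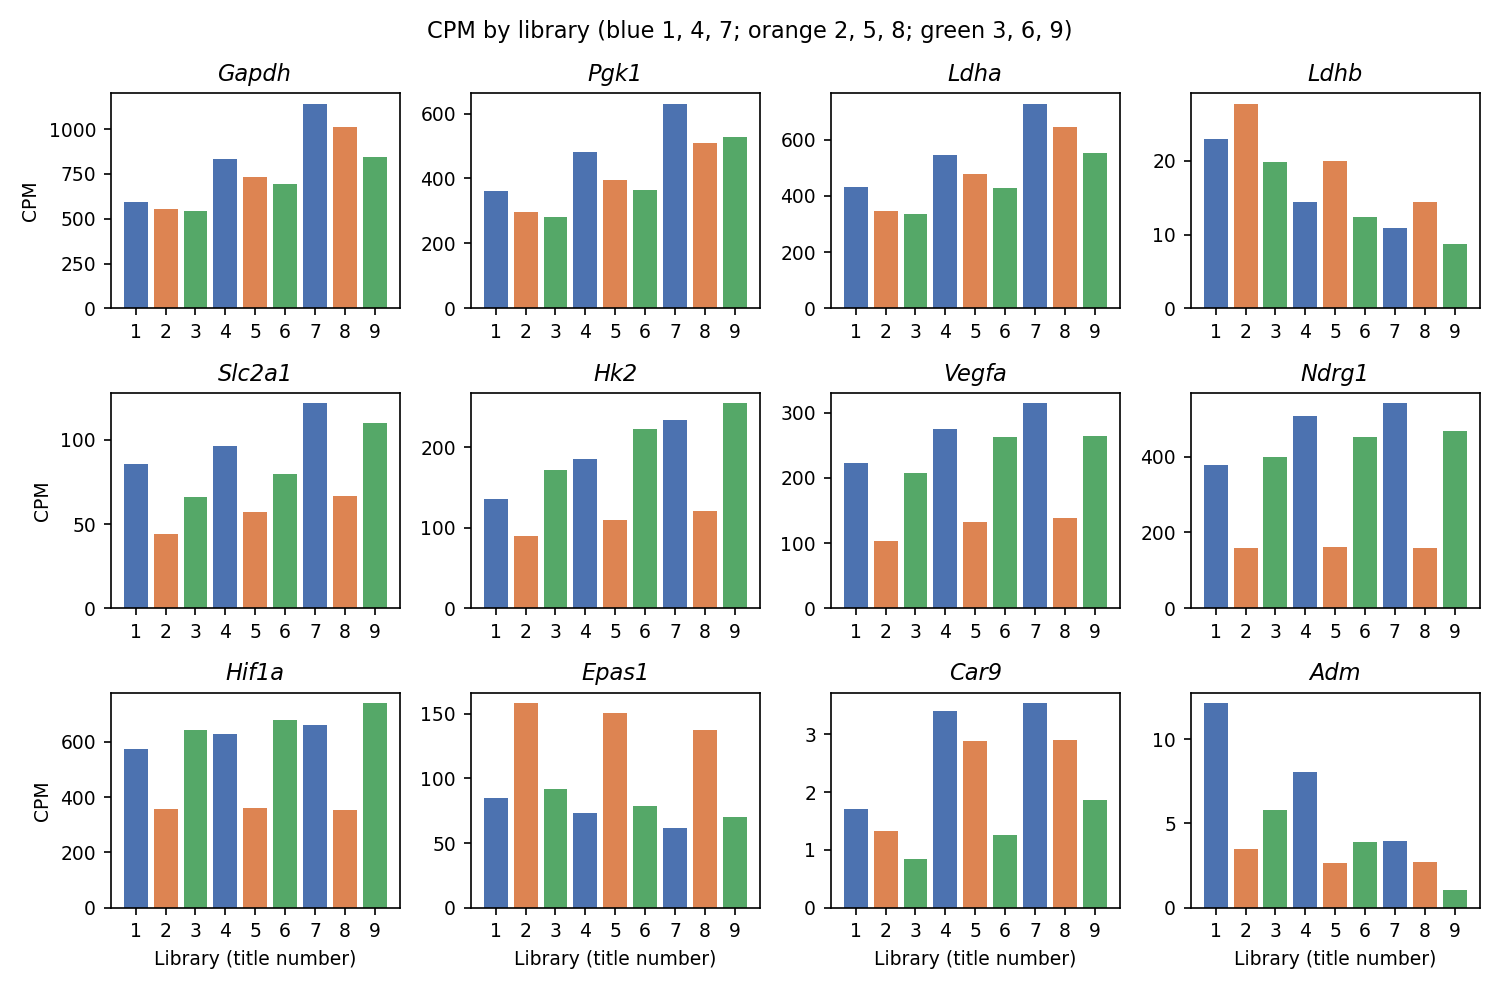
CPM of 12 genes in each library (bars, by title number, each axis starting at 0; blue for libraries 1, 4 and 7, orange for 2, 5 and 8, green for 3, 6 and 9). Gapdh, Pgk1 and Ldha are highest in library 7 and Ldhb in library 2, while Hk2, Vegfa, Ndrg1 and Hif1a are low and Epas1 high in libraries 2, 5 and 8.

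Libraries 2, 5 and 8 also held the most transcripts of dividing cells. The summed level of Mki67, Top2a, Ccnb1, Ccnb2 and Hmmr was 156 CPM in library 2, 249 in library 5 and 356 in library 8, and between 18.1 and 87.9 CPM in the other 6. It was also higher at each step 1-4-7 (23.4, 37.2 and 87.9 CPM) and 3-6-9 (18.1, 27.4 and 75.9 CPM), as along 2-5-8. All 5 genes had their minimum in library 3. Other marker lists moved in part with the division between libraries 2, 5 and 8 and the other 6. The summed level of 5 mammary epithelial markers was 399 CPM in library 2, 500 in library 5 and 770 in library 8, and between 222 and 364 CPM in the other 6, although the median score of the 3 that reached 1 CPM did not separate the libraries. Krt8 held most of the sum in library 8. Of those 3 markers 2 were highest in library 8 and 1 in library 1. The median score of 4 mesenchymal markers was 0.27 in library 2, 0.32 in library 5 and 0.19 in library 8 and at most 0.0069 in the other 6, although their summed levels overlapped. These 4 did not move together. Their highest values fell in libraries 1, 2, 5 and 8, 1 gene each, and their lowest in libraries 1, 7, 8 and 9. The part of proliferation or of these markers in the levels of Hif1a, Epas1, Vegfa, Ndrg1 and Hk2 was not tested. Nor was their part in the higher levels of enzymes in later blocks of title numbers. Of the 40 genes, 7 had libraries 2, 5 and 8 wholly below the other 6 (Egln1, Eno2, Hif1a, Hk2, Kdm3a, Ndrg1 and Vegfa), against 20.1% of all tested genes. Another 4 had them wholly above (Bnip3l, Epas1, P4ha1 and Pfkm), against 19.0%. Both counts are no larger than the shares among all genes, so this division of the libraries runs through the whole table.

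Higher values in later blocks of title numbers were more frequent among the 40 genes than in the table at large. Libraries 1 to 3 lay wholly below the other 6 for 9 of them (Bnip3, Egln3, Gapdh, P4ha2, Pfkp, Pgam1, Pgk1, Slc16a3 and Tpi1), against 2.72% of tested genes. Libraries 7 to 9 lay wholly above for 5 (Gapdh, Ldha, Pfkp, Pgam1 and Pgk1), against 3.29%. Values were higher at each step 1-4-7, 2-5-8 and 3-6-9 for 19 of the 40, against 13.6%, an order examined after the values were seen. Where the middle library of each block was the lowest, as for 12 of the 40, or the highest, as for 9, the shares among tested genes were 29.5% and 28.6%. No member had libraries 1 to 3 wholly above (3.89% of tested genes) or 7 to 9 wholly below the rest (4.08%), none had 4 to 6 wholly above (0.039%) or below (0.0312%), and none had 1, 4 and 7 wholly above (6.35%) or below (4.36%). Libraries 3, 6 and 9 lay wholly above the rest for Kdm3a (5.15% of tested genes) and wholly below for Pfkm (3.46%). These genes share their libraries and are not independent, and no test of the counts was made. The 40 were also chosen with earlier results of these data known, so the counts are no independent evidence.

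Enzymes and other hypoxia targets had similar numbers of variable genes, 7 of 17 and 6 of 15, beside 28.0% of all tested genes. The median log2 range was 0.95 for the enzymes, 0.76 for the others and 0.69 for all tested genes. Without library 7 only 3 enzymes were variable, Hk2, Eno1 and Ldhb. Highest in library 7 were 11 of the 17 enzymes and 7 of the 15 other targets (14.3% of all tested genes). The upward order along 1-4-7, 2-5-8 and 3-6-9 held for 11 enzymes and 5 other targets (13.6% of all tested genes). Libraries 7 to 9 lay wholly above the rest for 5 enzymes and for no other target (3.29%). Libraries 2, 5 and 8 lay wholly below the rest for 2 enzymes (11.8%) and 4 other targets (26.7%), on either side of the 20.1% of all tested genes. The difference between the lists was not tested, since their members share the 9 libraries.

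A score per library, the list's median of log2 levels centred on each gene's median library, summarises each list. For enzymes it was -0.14, -0.27 and -0.21 for libraries 1 to 3, 0.16, 0 and -0.08 for 4 to 6 and 0.39, 0.13 and 0.13 for 7 to 9. For the other targets it was -0.08, -0.15 and -0.09 for libraries 1 to 3, 0.17, 0 and -0.04 for 4 to 6 and 0.17, -0.03 and 0 for 7 to 9. The enzyme score thus ranged over 0.65 on the log2 scale, or 1.57-fold, and that of the other targets over 0.33, or 1.25-fold. Without library 7 the range of the enzyme score was 0.46. In both lists libraries 1 to 3 scored lowest and library 7 highest, almost level with library 4 for the other targets. The summed level of the 17 enzymes was 11061 CPM in library 7 and 6267 CPM in library 2, and that of the 15 other targets 1907 CPM in library 7 and 1349 CPM in library 8.

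**Figure D4:**
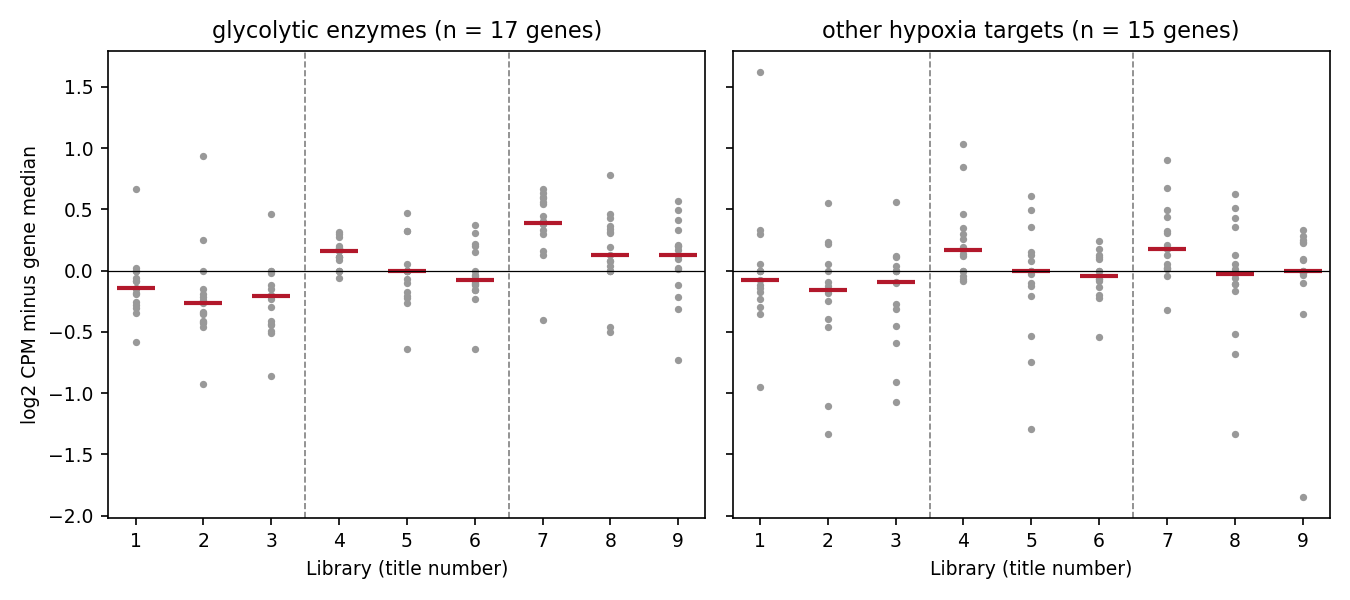
Log2 CPM centred on each gene's median library, for every glycolytic enzyme (left, 17 genes) and every other hypoxia target (right, 15 genes) by library, with the list's median as a red bar. The enzyme medians lie between -0.27 in library 2 and 0.39 in library 7, and those of the other targets between -0.15 and 0.17 in the same libraries.

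Further genes of the pathway came from lists that, like the 40 genes, were drawn up with earlier results of these data known, so their counts are no independent evidence. Of 30 further hypoxia targets 27 reached 1 CPM, 26 were tested and 12 were variable, beside 28.0% of all tested genes. The widest were Selenbp1, a selenium-binding protein gene that was too low to be tested (2.50 CPM in library 2 and 0.274 in library 9), and Ero1a, the gene of an oxidase of the endoplasmic reticulum. Ero1a, listed in the table under its older symbol Ero1l, stood at 376, 125 and 351 CPM in libraries 1 to 3, at 628, 144 and 513 CPM in libraries 4 to 6 and at 887, 179 and 733 CPM in libraries 7 to 9. Libraries 2, 5 and 8 were its lowest, and libraries 7 and 2 differed 7.09-fold (interval 6.87 to 7.32).

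None of the 12 measured genes of the HIF machinery was variable by this rule, beside 28.0% of all tested genes. The list holds ARNT, the von Hippel-Lindau ligase and the coactivators. All 12 passed the chi-square test, as 94.1% of all tested genes did. The widest of the 12 were Arnt2, a partner of HIF alpha, with 9.58 CPM in library 8 and 4.88 in library 6, and Cited2, whose product competes with HIF for its coactivator, with 113 CPM in library 3 and 64.8 in library 7. Hif3a stayed at or under 0.0989 CPM. Of 12 further isozymes and related enzymes of glycolysis, listed as of low expected level, 3 reached 1 CPM. They were Bpgm, a bisphosphoglycerate mutase gene, with 46.6 CPM in library 2 and 19.3 in library 7, Eno3, the muscle enolase gene, with 13.4 CPM in library 8 and 5.96 in library 1, and Adpgk, which was not variable. Ldhc, Pgk2 and Gapdhs had 0 counts in all libraries, which allows up to 0.0742 CPM in library 7 and up to 0.164 CPM in library 9.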

How the data were processed

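The authors deposited 1 table of expected counts per gene (estimated counts, whole numbers and not normalised) for 9 poly(A) RNA libraries. Per the submitters' processing notes, RSEM 1.3.3, STAR 2.7.8a, the GRCm38 build, FastQC 0.11.8 and cutadapt 2.3 were used. No source used here names the annotation release or strand setting. Among 55492 rows, 5 name no gene (reporters and Cre). They hold 0 counts (0% of the total) and were left out. Aldoa stood on more than 1 row, and the other row, with 84 counts, was not used.

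Counts were scaled with TMM factors and filtered with edgeR 4.0.16 in R 4.3.3 (minimum count 10, minimum total 15, no groups), and CPM used total counts times the factor. A prior count of 2 was added on the log2 scale, where ranges of low genes are thereby understated. Chi-square tests and intervals used SciPy 1.17.1 and were tested on simulated data. Simulated counts for the chi-square test varied only by counting noise and seeded changes, with no further variation between libraries. With no groups no coefficient could be tested, and variation between libraries may be biological or technical. Lengths are the union of exons in GENCODE M21 (GRCm38). The counts do not show PCR duplicates, which intervals ignore. The members and lists were chosen with earlier results of these data known. All 40 genes are named, with all 9 values for the 2 widest of each role and for 13 genes listed by name; Ndrg1 is described more fully because of its values.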

Additional observations from a re-analysis of the deposited data

How the results depend on the processing

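Scaling with RLE size factors or totals alone, a prior count of 0.5 and a filter on a mean of at least 1 CPM left the number of variable genes among the 40, the enzymes and the other targets within 1.5 times the main count (18, 7 and 6). With a range threshold of 0.58 on the log2 scale the counts were 34, 16 and 11, and 7333 genes of the whole table, against 3593. With no filter 6412 genes of the whole table were variable and the enzyme score range was 0.70 on the log2 scale. Leaving out 1 library at a time gave 14 to 19 variable genes of the 40, 3 to 8 enzymes, 5 to 6 other targets and 3267 to 3563 genes of the whole table. It gave 21 to 24 genes highest in library 7, 15 to 17 lowest in library 3, an enzyme score range of 0.46 to 0.71 and a score range of the other targets of 0.27 to 0.35. The fewest enzymes and the smallest enzyme range came without library 7. With totals alone, libraries 2, 5 and 8 lay wholly below the other 6 for 5 of the 40 genes, against 7. They lay wholly above for 5, against 4. RLE size factors left both counts unchanged. The TMM factors of libraries 2, 5 and 8 were 1.030, 1.035 and 1.037, and those of the rest lay between 0.975 and 0.998. Over single genes, 545 values kept their side of the threshold, 13 lost the call and 2 gained it. With the longest transcript as the length, isozymes kept the order of their median levels within each pair or family. The shares depend on the length used. Median CPM per kilobase went from 40.7 to 81.2 for Hk1 but from 28.7 to 31.1 for Hk2. For Eno1 it went from 65.7 to 174 and for Eno2 from 17.7 to 29.7. Shares of Hk2 and Eno2 are thus smaller by that length, and order in single libraries was not compared. No paired analysis was possible because no library has a group and the titles carry no replicate numbers. Depth limits Egln3, Car9 and Adm most.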

Other observations

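Side branches of glycolysis were measured as well. Of 7 genes of the pentose phosphate pathway, which makes NADPH and ribose from glucose-6-phosphate, none was variable, beside 28.0% of all tested genes. All 7 passed the chi-square test, as 94.1% of all tested genes did. Library 7 held the highest value of 5 of the 7 genes (14.3% of all tested genes), and library 2 the lowest of 5 (18.2%). The widest were Rpia, an isomerase gene, with 24.6 CPM in library 7 and 15.1 in library 2, and Taldo1, the transaldolase gene, with 150 CPM in library 7 and 92.8 in library 2. Of 18 measured genes of glucose, glycogen and pyruvate handling 5 were variable (27.8%), a share near the 28.0% of all tested genes. The widest were Gbe1, the glycogen branching enzyme gene, with 24.4 CPM in library 7 and 8.75 in library 2 (2.79-fold, interval 2.45 to 3.18), and Pfkfb1, a bifunctional enzyme gene, with 2.22 CPM in library 5 and 0.836 in library 1.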
